A study of Drosophila melanogaster with 4 samples.

Results

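Odorant-binding proteins (Obps) form a large family of small soluble proteins that cells secrete and that disulphide bonds hold in a compact fold around a pocket for hydrophobic molecules. The genes described here are those whose current *Drosophila melanogaster* symbol is Obp followed by a number and that were read by an array probe annotated to exactly 1 gene. The annotation lists 51 such genes, of which 48 had a probe and 11 gave a value on at least 1 array. Of these 11 genes, 6 gave a value in both RNA extractions of the mutant and were tested, while 5 gave a value in 1 extraction only and are described without a test.

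In the fluid that bathes olfactory and gustatory neurons, Obps are known to carry odorants and other small ligands, and the receptors on the neurons are encoded by the separate Or, Gr and Ir families. Many Obps are also made outside the sense organs, in fat body, glia, gut and the reproductive tract, where they are thought to carry lipids and other hydrophobic compounds. Obp genes often lie side by side on a chromosome arm, and their symbols give the cytological division and a letter, so that *Obp56a* to *Obp56i* are a group of neighbours. ASH2, the protein affected in the mutant, belongs to the trithorax group of chromatin regulators and is a subunit of complexes that methylate lysine 4 of histone H3.

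RNA came from whole larvae of the third instar, reared at 25ºC on food with bromophenol blue and collected as wandering animals in the early part of that instar. The mutant larvae carried the *ash2*I1 allele (w1118;+;ash2I1) and the wild-type larvae were of the isogenic w1118;+;+ strain. Per the methods, the mutant stock was kept over the TM6c balancer and mutant larvae were recognised as Tb+, and its chromosomes X, Y and 2 had been replaced by those of the isogenic strain, whereas chromosome 3, which carries *ash2*, had not. A difference between the strains on chromosome 3 and the effect of the allele therefore cannot be told apart for any Obp gene. The 12 Obp genes of arm 3R and the 2 of arm 3L lie on that chromosome. Genes of other arms, *Obp56d* and *Obp56e* included, could be affected by it from a distance, which was not tested. Amplified mutant RNA of 2 extractions was hybridised to 2 arrays per extraction, always against the same single pool of wild-type RNA, so the 2 arrays of an extraction carry the same RNA, n is 2 extractions and the spread among wild-type larvae is left out. Each value is a log2 ratio, and its direction is likely mutant over wild type, since the labels put mutant RNA in Cy5 on all 4 arrays and Cy5 is the numerator by default in the software of the study. The dyes were not swapped, so a dye bias of a probe and a difference between genotypes cannot be told apart.

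Most Obp genes gave no value, as did most genes. Spots that failed the quality thresholds of the study are empty in the table, so a gene without a value may still be expressed. Of the Obp genes with a probe 22.92% had a value and 12.5% were tested, beside 29.08% and 13.76% of all 12058 genes with a probe. Arrays 1 and 2, of extraction 1, gave values for 9 and 7 Obp genes, and arrays 3 and 4, of extraction 2, for 7 and 2, out of 2481, 1486, 2448 and 378 genes of all kinds. For 4 of the 6 tested Obp genes extraction 2 was therefore array 3 alone. On arm 2R, which holds 29 Obp genes, 4 were tested and 1 more had a value. On 3R 2 were tested and 3 more had a value, on 2L 1 of 2 had a value, and none of the 2 genes of 3L or of the 6 of the X chromosome had one. No spot of the *ash2* probe passed either, so the targeted transcript could not be checked.

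The strongest difference among the tested Obp genes was that of *Obp56e*, which was higher in the mutant. Its log2 ratio was 4.13 on array 1, 2.39 on array 2 and 2.48 on array 3, and it had no value on array 4. All 3 arrays lay far above 0, and on them *Obp56e* ranked 7 of 3275, 6 of 2091 and 11 of 3513 probe values from the top. Between single arrays the fold ranged from 5.23 to 17.5. Averaged by extraction the log2 ratio was 3.26 and 2.48, and in a limma fit on the extraction means it was 2.87 ± 0.23 (SE, n = 2; 95% interval 2.24 to 3.50), a 7.30-fold rise (adjusted p = 0.0215). This placed it 5th from the top among the 1659 genes tested. The size of the rise was less certain than its direction. Arrays 1 and 2 carry the same RNA and differed by 1.74 for *Obp56e*, a gap at percentile 99.69 of the 1288 genes read on both, whose median gap was 0.21 and whose 95th percentile was 0.82.

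*Obp56e* was the 1 Obp gene of the 6 tested that passed both criteria, an adjusted p under 0.05 after Benjamini-Hochberg correction over all genes and a difference of at least 2-fold. Over all tested genes 6.63% passed, 3.8% higher and 2.83% lower, and a single call among 6 genes is not read as a property of the family. The median log2 ratio of the 6 genes was -0.12, beside 0.01 for all tested genes, and 3 of the 6 lay above 0 and 3 below. Their median absolute log2 ratio was 0.49, beside 0.27 for all tested genes.

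**Figure D1:**
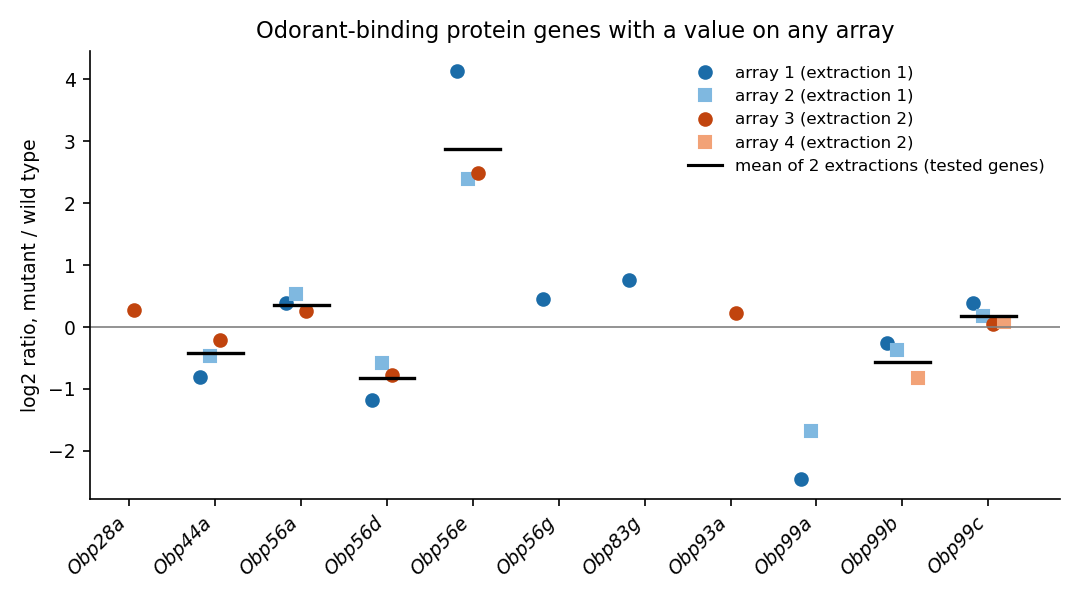
Log2 ratio of mutant over wild type (y axis) for the 11 Obp genes with a value (x axis), 1 point per array, arrays 1 and 2 from extraction 1 and arrays 3 and 4 from extraction 2, with a bar at the mean of the 2 extractions for the 6 tested genes. The 3 points of *Obp56e* lie between 2.39 and 4.13 and the 2 points of *Obp99a* between -2.445 and -1.68, while the points of the other 9 genes lie between -1.18 and 0.75.

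**Figure D2:**
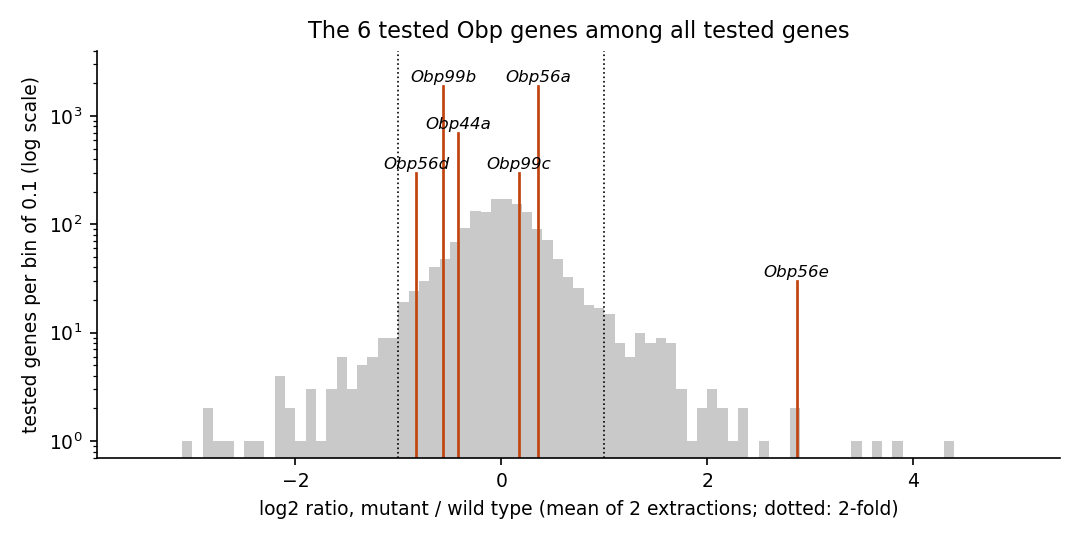
Number of tested genes (y axis, log scale) per bin of 0.1 of the log2 ratio of mutant over wild type averaged over the 2 extractions (x axis), with a vertical line for each of the 6 tested Obp genes (line height only separates the labels) and dotted lines at 2-fold. *Obp56e*, at 2.87, lies beyond the 2-fold line and the other 5 lie between the dotted lines, with *Obp56d* the lowest of them at -0.83.

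*Obp56d*, which lies next to *Obp56e* apart from 1 antisense RNA gene, was lower in the mutant. Its log2 ratio was -1.18, -0.59 and -0.77 on arrays 1, 2 and 3, below 0 on each. The mean was -0.83 ± 0.13 (SE, n = 2; 95% interval -1.18 to -0.47; limma adjusted p = 0.0418), so *Obp56d* passed the p threshold but, at 1.77-fold, not the 2-fold minimum. Without a fold minimum 10.1% of all tested genes passed. On single arrays its fold ranged from 1.50 to 2.27, and 1 of its 3 arrays lay past 2-fold. Its adjusted p also missed the threshold without array 2 (0.0741) and with each probe tested on its own (0.0542).

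*Obp56a*, the first gene of the group, had log2 ratios of 0.38, 0.54 and 0.26 on the same arrays. All were above 0, but the mean of 0.36 ± 0.14 (SE, n = 2; 95% interval -0.01 to 0.73) did not pass (limma adjusted p = 0.152). *Obp56g*, known from adult males as a protein of the ejaculatory tract and seminal fluid, was read on array 1 only, with 0.46. The remaining genes of the group, *Obp56b*, *Obp56c*, *Obp56f*, *Obp56h* and *Obp56i*, had probes without a value on any array.

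The comparison of neighbours asked whether Obp genes that lie side by side had the same ratio. For the Obp56 group they did not. The log2 ratio of *Obp56a* exceeded that of *Obp56d*, with *Obp56b* and *Obp56c* between them, by 1.19 (95% interval 0.67 to 1.70; adjusted p = 0.000138 by limma on the differences of 1642 pairs of tested neighbours, with their spread shared). The difference of *Obp56d* minus *Obp56e* was -3.70 (-4.22 to -3.17; adjusted p = 1.155e-21) and that of *Obp56a* minus *Obp56e* was -2.51 (-3.03 to -1.99; adjusted p = 1.425e-13), so *Obp56e* stood above both. Along the arm the 3 tested genes thus ran slightly above 0, below 0 and far above 0, in that order, in both extractions. Differences of this kind were common, since 33.5% of the 1642 pairs of neighbours passed, and the median absolute difference over all pairs was 0.44. Apart from *Obp56a* and *Obp56e*, these pairs are consecutive among the tested genes, however many untested genes lie between them. The share is therefore not one for genes that lie side by side. The fit over all pairs borrows most of its information from other pairs, with 87.5 degrees of freedom for 2 extractions, which makes these p-values small. With standard errors combined from each gene's own fit on 4.16 degrees of freedom, a more cautious calculation chosen after seeing the data, the adjusted p of the 3 differences was 0.045, 0.0349 and 0.0358. The interval of *Obp56d* minus *Obp56e* widened to -4.42 to -2.98 and that of *Obp56a* minus *Obp56e* to -3.24 to -1.78. For *Obp56a* minus *Obp56d* it stayed at 0.67 to 1.70. On that calculation 127 of the 1642 pairs passed.

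The Obp56 group had few measured neighbours. *CG15126*, shortly before *Obp56a*, had a log2 ratio of 0.55 on array 3 alone. *Toll-7*, between *Obp56h* and *Obp56i*, had -0.72 on array 1 alone, and neither gene could be tested. From *Obp56e* to *Obp56g* the annotation lists 113 genes, of which 96 are for ribosomal RNA and 3 code for proteins. Outside the group the nearest tested gene before *Obp56a* was *CG16926*, 43 annotated genes away, at -0.00 ± 0.13 (SE, n = 2) in log2 ratio, and the nearest after *Obp56e* was *Ate1*, an arginyltransferase gene 171 genes away, with 0.23 ± 0.14. Neither passed (limma adjusted p = 0.989 and 0.329). *Obp56e* differed from *Ate1* by 2.64 (adjusted p = 3.145e-14 with the shared spread and 0.0358 with the genes' own standard errors), whereas *CG16926* and *Obp56a* differed by -0.36 (95% interval -0.88 to 0.15; adjusted p = 0.292).

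**Figure D3:**
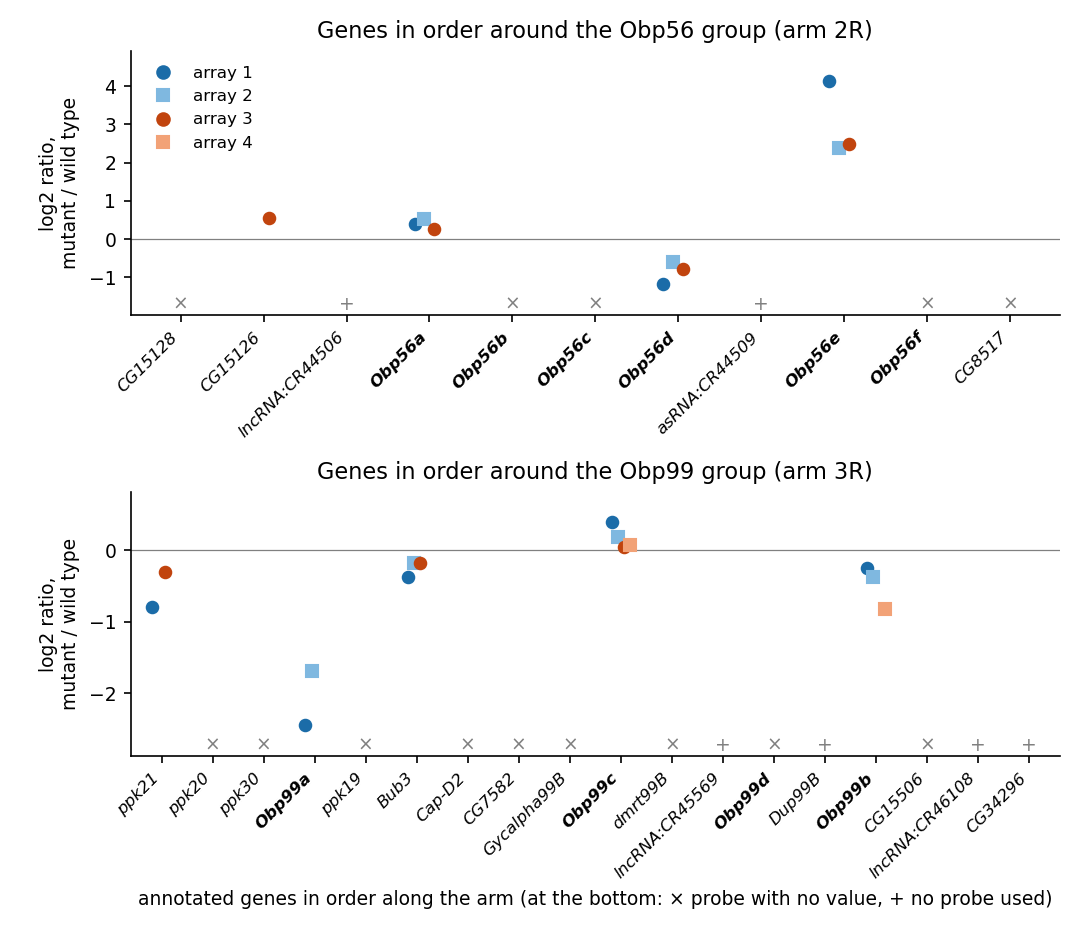
Log2 ratio of mutant over wild type on each array (y axis) for annotated genes in their order along the arm (x axis, order only, not distance), around *Obp56a* to *Obp56f* on 2R (top) and the Obp99 group on 3R (bottom), with Obp genes in bold. At the foot of each panel a cross marks a probe with no value and a plus sign a gene with no probe used. Neighbouring Obp genes differ in sign, *Obp56d* from -1.18 to -0.59 beside *Obp56e* from 2.39 to 4.13, and *Obp99a* and *Obp99b* below 0 on each array with *Obp99c* above 0.

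In the Obp99 group the lowest value of the family was found. *Obp99a* had a log2 ratio of -2.445 on array 1 and -1.68 on array 2, and no value in extraction 2, so it was not tested. Both arrays read the same RNA and both placed it near the bottom of the distribution, with 0.67% and 1.15% of the values of the array below it. The ratio corresponds to 5.45-fold and 3.20-fold less signal in the mutant on these arrays.

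*Obp99b*, also named *turn on sex-specificity* and known from the fat body of the adult head, had log2 ratios of -0.25 and -0.37 on arrays 1 and 2 and of -0.82 on array 4. It was below 0 on each. The mean of -0.56 ± 0.18 (SE, n = 2; 95% interval -1.05 to -0.08) did not pass the adjusted threshold (limma adjusted p = 0.117). *Obp99c*, the only Obp gene read on all 4 arrays, had 0.39, 0.18, 0.045 and 0.08. These values were small and all above 0, and their mean of 0.17 ± 0.14 (95% interval -0.20 to 0.55) did not pass either (limma adjusted p = 0.423). *Obp99d* had a probe and no value.

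*Obp99c* lies between *Obp99a* and *Obp99b*, 5 annotated genes from the former and 4 from the latter. It exceeded *Obp99b* by 0.74 on the log2 scale (95% interval 0.22 to 1.25), with 0.60 in extraction 1 and 0.88 in extraction 2. This difference passed with the spread shared over all pairs (limma adjusted p = 0.0199) but not with the genes' own standard errors (adjusted p = 0.105). *Bub3*, a spindle checkpoint gene between *Obp99a* and *Obp99c*, had -0.22 ± 0.13 (SE, n = 2; limma adjusted p = 0.291), and *ppk21*, a gene of the pickpocket sodium channel family before *Obp99a*, had -0.55 ± 0.17 (adjusted p = 0.117). After *Obp99b*, *ATPsyngamma*, a subunit gene of the mitochondrial ATP synthase, had 0.32 ± 0.17 (adjusted p = 0.267). The difference of *Obp99b* minus *ATPsyngamma* was -0.89, and it likewise passed with the shared spread (95% interval -1.40 to -0.37; adjusted p = 0.0044) but not with the genes' own standard errors (95% interval -1.56 to -0.21; adjusted p = 0.0938).

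**Figure D4:**
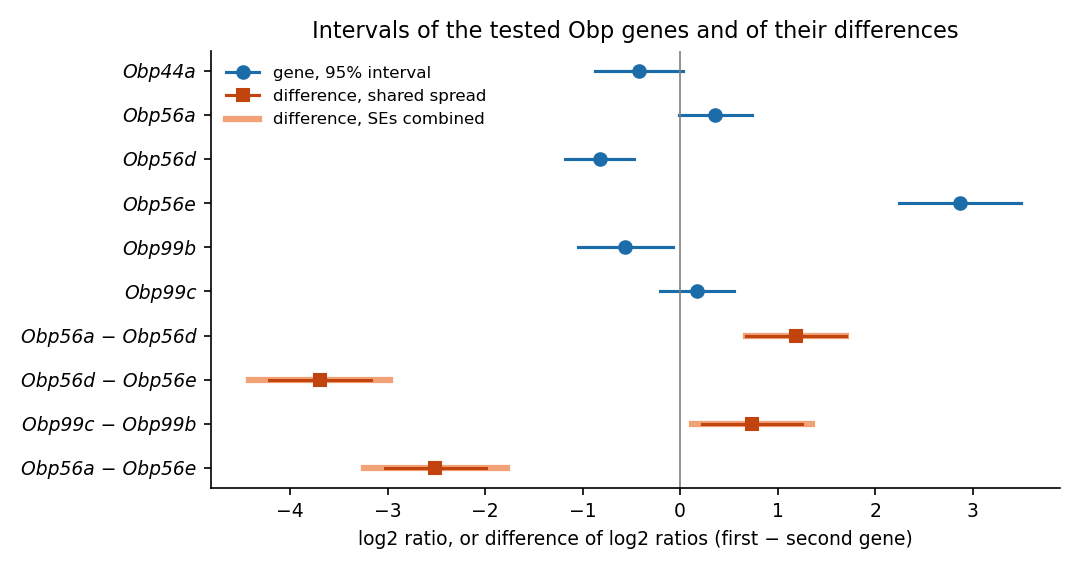
Log2 ratio with its 95% interval for each of the 6 tested Obp genes (circles), and difference in log2 ratio between Obp genes of 1 group (squares, first minus second gene), with intervals from a spread shared over all pairs (dark) and from the genes' own standard errors (pale). The intervals of *Obp56e* (2.24 to 3.50), *Obp56d* (-1.18 to -0.47) and *Obp99b* (-1.05 to -0.08) leave out 0 before correction over all genes, and so do those of all 4 differences.

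*Obp44a*, on 2R apart from other Obp genes, encodes a protein known in larvae from the glia of the brain, where it binds fatty acids. Its log2 ratio was -0.81, -0.47 and -0.20 on arrays 1, 2 and 3. It was below 0 on each, and the mean of -0.42 ± 0.17 (SE, n = 2; 95% interval -0.87 to 0.03) did not pass (limma adjusted p = 0.162). The gene directly before it, *Pabp2*, which encodes a nuclear poly(A)-binding protein, had -0.06 ± 0.13 (adjusted p = 0.743), and the next tested gene after it, *CG30371*, had 0.16 ± 0.13 (adjusted p = 0.450). *Obp44a* was not distinguishable from *Pabp2* (difference 0.35, 95% interval -0.16 to 0.87, adjusted p = 0.306) or from *CG30371* (difference -0.58, 95% interval -1.09 to -0.06, adjusted p = 0.075) after correction over all pairs.

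The other genes with a value in 1 extraction were each read on 1 array, and all were above 0. *Obp83g* had 0.75 on array 1. *Obp28a*, which encodes an abundant protein of the adult antenna, had 0.28 on array 3, and *Obp93a* had 0.22 on array 3. None of the nearest tested genes on either side of them passed. Before *Obp28a* lies *Gr28a*, a gustatory receptor gene with a log2 ratio of 0.06 ± 0.13 (SE, n = 2; limma adjusted p = 0.770), and after it *CG13796*, 26 annotated genes away, was at -0.82 ± 0.16 (adjusted p = 0.0524), with -1.02 in extraction 1 and -0.63 in extraction 2, opposite in sign to *Obp28a*. Before *Obp83g*, *Gasp*, a chitin-binding protein gene, had 0.50 ± 0.20 (adjusted p = 0.165), and after it *CG42724* had 0.04 ± 0.13 (adjusted p = 0.849). *Obp93a* directly follows *CG5793*, at 0.36 ± 0.13 (adjusted p = 0.137), and *Ddrgk1* after it had 0.15 ± 0.16 (adjusted p = 0.533). Each of the single readings of *Obp83g*, *Obp28a* and *Obp93a* was smaller than 0.82, the 95th percentile of the gap between arrays 1 and 2, which carry the same RNA. That gap is a difference between 2 arrays rather than a distance from 0. It also does not cover array 3, on which *Obp28a* and *Obp93a* were read.

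Every Obp gene read on more than 1 array kept its sign on all of its arrays, 7 of 7, as did 72.97% of the 1942 genes read on more than 1 array. The sizes were less alike. Of the 7 Obp genes read on both arrays of extraction 1, 5 had the larger absolute log2 ratio on array 1, beside 75.85% of all such genes, and the log2 values of array 1 had the widest spread of the 4 arrays (SD 0.79, beside 0.61 to 0.65). Between extractions the gap was 0.78 for *Obp56e*, 0.51 for *Obp99b* and 0.43 for *Obp44a*, and 0.12 to 0.22 for the other 3 tested genes, beside a median of 0.23 over all tested genes.

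The receptor families with which Obps work in sense organs were nearly absent from the values. Of 59 odorant receptor genes with a probe, 1 had a value (*Or19a*, -0.22 ± 0.14, SE, n = 2, limma adjusted p = 0.329). Among 56 gustatory receptor genes 2 did (*Gr28a*, given above, and *Gr39a*, 0.57 on array 3), and among 51 ionotropic receptor genes also 2 (*Ir75d*, -0.01 on array 1, and *Ir7c*, 0.32 on array 3). None of the 10 CheA and CheB genes with a probe, which encode secreted proteins of taste organs, had one. None of the 2 receptor genes tested passed.

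Other carriers and olfactory proteins gave 3 values among 9 genes with a probe. *EbpIII*, named for the ejaculatory bulb, had log2 ratios of 1.61, 0.73 and 0.72 on arrays 1, 2 and 3, all above 0. Its mean of 0.95 ± 0.17 (SE, n = 2; limma adjusted p = 0.0458) passed the p threshold but not the 2-fold minimum. *Phk-3*, a gene of the same family of chemosensory proteins, lay below 0 on every array with -1.43, -1.17, -0.66 and -0.19, and its mean of -0.86 ± 0.25 did not pass (adjusted p = 0.1003). *CG30172* had -0.01 on array 3. *lush*, an odorant-binding protein gene whose symbol lies outside the naming rule, had a probe and no value.

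Whole larvae mix all tissues, and in such RNA a smaller share of cells that express a gene and less RNA per cell cannot be told apart. None of the 5 marker genes of olfactory organs (*Orco*, *lush*, *Snmp1*, *a10*, *Os-C*) had a value. A marker is said here to have fallen or risen if it passed both criteria, as 2.83% and 3.8% of all tested genes did, respectively. Of 5 fat body markers tested 3 fell and none rose, with log2 ratios from -2.11 to 0.01 and a median of -1.02. *apolpp*, at -0.88, passed the p threshold (limma adjusted p = 0.0409) but not the 2-fold minimum, so it is not counted as fallen. Of 10 midgut markers tested 3 rose and 1 fell (-1.85 to 1.97, median 0.60). Of 6 salivary gland markers tested 2 fell and none rose (-3.09 to 0.80, median -1.41), but the list was split in sign. *Sgs4*, *Sgs5*, *Sgs5bis* and *Eig71Ee* lay below 0, and *Sgs5*, at -2.78, did not pass (limma adjusted p = 0.0651). The means of *ng1* and *ng2* were both 0.80, and *ng3*, read on array 1 only, had 1.98. All 3 epidermal markers tested fell (-2.13 to -1.21), and none of 4 muscle markers passed (-0.17 to 0.46). Among nervous system markers only *elav* had a value, -0.60 on array 3. Of 6 blood cell markers 2 had a value, both on array 1 (*He*, 0.06, and *PPO2*, 2.32), and of 4 tracheal markers 3 did, with *Gasp* alone tested. The part of these tissues in the values of the Obp genes was not tested.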

How the data were processed

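RNA of whole larvae was measured on 4 two-colour arrays of long oligonucleotides. Per the methods, the authors scanned the arrays with GenePix Pro 6, removed spots below their quality thresholds, corrected background by normexp, normalised within arrays by OLIN and scaled between arrays. The deposited values are log ratios, taken here as log2 because limma, which the submitters' processing notes name, gives that base. No raw intensities were analysed here. The arrays hold 3275, 2091, 3513 and 1108 values, and this number limits the precision.

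Of 16416 probes 13164 had 1 gene, 101 several and 3151 none. Symbols were updated through gene identifiers (12533 probes), accessions (120) or symbols (21) of a RefSeq table of assembly Release 6, and 490 were kept. That table also gave gene order, while coordinates were not used.

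Probes were averaged per gene and array, then arrays per extraction. The 1659 genes with values in both extractions were tested against 0 with limma 3.58.1 in R 4.3.3 (Python 3.11.15, pandas 2.3.3, NumPy 2.4.6). The fit was also run on simulated data, but their noise between arrays was not taken from these arrays. That run therefore does not show how accurate the fit is here. A gene was called at a Benjamini-Hochberg adjusted p under 0.05 and at least 2-fold. Differences between tested neighbours on an arm, and between Obp genes of 1 cytological group, were fitted likewise over 1642 pairs. Since the labels do not say that the extractions came from separate cultures, p-values measure only the spread between them. That spread also holds differences between arrays, and limma draws part of its estimate from the other genes tested.

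The text names every Obp gene with a value, the nearest tested gene on each side, members with values of the receptor and carrier lists (at most 4 a list) and marker lists. *CG15126* and *Toll-7* were named in addition, for the Obp56 group. Members and lists were chosen with earlier results of these data known. Alternatives covered the replicate structure, arrays left out, scaling, probe handling, completeness of values, variance model and threshold.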

Additional observations from a re-analysis of the deposited data

How the results depend on the processing

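*Obp56e* passed in all 15 alternatives in which it could be tested, with log2 ratios from 2.43 to 3.30. Its limma adjusted p ran from 0.00104 to 0.0442, the least sure without array 2. These were not independent checks. Many left its log2 ratio at 2.87, since *Obp56e* has 1 probe and no value on array 4. Others left it there because only the genes tested, the variance model or the threshold changed. Dropping the fold minimum could not remove the call. The rise of *Obp56e* rests on 3 arrays, with extraction 2 given by array 3 alone. The number of Obp genes called, 1 of 6, ranged from 0 to 1 with 1 array left out. It was 0 without array 3, where 2 Obp genes and 358 genes in all could be tested and 0 of those passed, and 0 among genes with values on all 4 arrays, where *Obp99c* was the 1 Obp gene left. It was 2 with no fold minimum, when *Obp56d* (-0.83, adjusted p = 0.0418) was added by construction. No log2 ratio of a tested Obp gene changed its sign. Each had the same sign on all of its arrays, so leaving out arrays or averaging them differently could not have changed it. *Obp56d* ranged from -0.98 to -0.68, and its adjusted p rose to 0.0741 without array 2, 0.0542 with probes tested singly and 0.331 with limma's treat, *Obp56a* from 0.32 to 0.40, *Obp99b* from -0.63 to -0.48, *Obp44a* from -0.51 to -0.33 and *Obp99c* from 0.12 to 0.23.

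All 4 differences within the Obp56 and Obp99 groups passed, and with 1 array left out 0 to 4 did. The 0 came without array 3, where 1 of the 4 could be tested. That of *Obp99c* over *Obp99b* did not pass without array 2 (0.76, adjusted p = 0.0999), without array 3 (0.75, adjusted p = 0.236) or with the genes' own standard errors (0.74, adjusted p = 0.105, chosen after seeing the data). Over all genes 110 were called, 47 of them lower. This became 55 (20 lower) without array 2, 0 without array 3, 68 (28 lower) with probes tested singly, 49 (18 lower) of 278 genes with all 4 arrays, 168 (78 lower) with no fold minimum and 22 (10 lower) with limma's treat against 0.5. The cause was not tested beyond the smaller number of genes or arrays. No paired analysis was possible because all samples belong to 1 group, and each ratio is already taken within an array.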
